A study of Saccharomyces cerevisiae with 21 samples.

Results

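The seripauperin mannoproteins of budding yeast were followed at the RNA level in strains with changed Swi/Snf, an ATP-driven remodelling complex that slides and evicts nucleosomes. The genes were taken by name from a table of 6407 genes. Every gene called PAU with a number, DAN1 to DAN4 or TIR1 to TIR4 was included, which gave 22 genes: 17 PAU genes, DAN4 and the 4 TIR genes. DAN1, PAU3, PAU15, PAU16, PAU19, PAU20, PAU21 and PAU22 were not analysed here, and DAN2 and DAN3 are listed under their other names, PAU23 and PAU24.

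There were 21 RNA-seq libraries of Saccharomyces cerevisiae W303, 7 groups with 3 libraries in each, from poly(A) RNA of cells at mid-log phase in rich glucose medium (YPD). All strains were deleted for SWI3 or SNF2 and carried LEU2, a selection marker, with or without a copy of the deleted gene. Whether that copy was on a plasmid or in the genome is not stated in the labels. In the swi3[delta] background the copy was SWI3 (here the SWI3 wild type), the allele swi3-E815X, or none, with LEU2 alone (swi3del). In the snf2[delta] background it was SNF2 (the SNF2 wild type), the allele snf2-W935R or snf2-Q928K, or none, with LEU2 alone (snf2del). Even the wild types were thus deletion strains with a gene put back, and replicates came from separate days. Swi3 is a core subunit of Swi/Snf and Snf2 is its ATPase. Levels are in TPM, a gene's share of the transcripts of its library after scaling for transcript length. SWI3 RNA itself was 37.1 ± 1.38 TPM (SD, n = 3) in the SWI3 wild type, 35.5 ± 0.967 TPM in swi3-E815X and 0.127 ± 0.0601 TPM in swi3del, and between 33.4 and 45.4 TPM in the means of the SNF2 groups. The level of SNF2 itself was not analysed here. All 22 genes were above 0 TPM in every library, and between 16 and 22 of them reached 1 TPM.

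Seripauperins are small proteins of the yeast cell wall and secretory route, named for being poor in serine compared with the related Tir, Dan and Tip proteins, which carry long stretches rich in serine and threonine and are heavily mannosylated. Most genes of the family are known for being silent in air and induced when oxygen or heme is scarce. Rox1, Mot3 and the Tup1-Cyc8 corepressor hold them down in air, and Upc2 activates them without oxygen. Many PAU genes lie next to chromosome ends, a setting in which Sir proteins can silence genes.

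The genes differ in position and in sequence. By the R64 annotation, 12 of the 17 PAU genes (PAU1, PAU4, PAU6, PAU8 to PAU14, PAU18 and PAU24) lay within 20 kb of a chromosome end, and 5 (PAU2, PAU5, PAU7, PAU17 and PAU23) lay in the interior, between 53.2 and 223 kb from the end. DAN4 lay 30 kb from an end, and the TIR genes between 105 and 346 kb from one. TIR4 and TIR2 are neighbours on chromosome XV, with TIR4 at 344335 to 345798 on the plus strand and TIR2 at 346195 to 346950 on the minus strand. Coding sequences of the PAU genes near ends, leaving out the short PAU9, were between 94.2 and 100% identical (median 96.7%), while those of the interior PAU genes without the short PAU7 were between 82.5 and 93.9% identical. Across the 2 classes identity ran from 82.5 to 96.4%, and position and sequence did not divide the genes alike: the interior PAU2 was 94.5 to 96.4% identical to the genes near ends and 82.5 to 86.5% to the other interior genes. TIR genes were 43.1 to 73.2% identical among themselves. PAU1 and PAU14 have the same coding sequence, as have PAU6 and PAU18. No 50-base stretch of PAU1, PAU6, PAU9, PAU14 or PAU18 was unique in the genome, against 100% of those of PAU7, TIR2 and TIR3, 91.4% of those of PAU17 and PAU23, 80.1% of those of DAN4 and 87% of those of TIR1. How reads shared between copies were assigned is not given in the sources used here, so single values of the PAU genes near ends are uncertain.

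The first 90 coding bases of 5 PAU genes, all of 363 bases, show how little there is to tell the copies apart. Capitals mark bases that differ from PAU14 at the same position. They are given 5′ to 3′ on the coding strand from the R64 reference, for PAU14 (chrIX:9066-9155, minus strand), PAU1 (chrX:9049-9138, minus), PAU10 (chrIV:1523249-1523338, plus), PAU12 (chrVII:1080306-1080395, plus) and the interior PAU2 (chrV:63728-63817, plus).
PAU14: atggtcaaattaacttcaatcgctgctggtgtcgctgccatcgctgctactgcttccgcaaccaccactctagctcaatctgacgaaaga
PAU1: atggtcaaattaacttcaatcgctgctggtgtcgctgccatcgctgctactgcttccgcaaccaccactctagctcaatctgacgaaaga
PAU10: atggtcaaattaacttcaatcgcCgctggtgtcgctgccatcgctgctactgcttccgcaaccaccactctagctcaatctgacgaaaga
PAU12: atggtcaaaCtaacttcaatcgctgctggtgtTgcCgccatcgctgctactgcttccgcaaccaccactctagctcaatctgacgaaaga
PAU2: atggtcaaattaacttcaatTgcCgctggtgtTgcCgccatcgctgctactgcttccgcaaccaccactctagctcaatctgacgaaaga
PAU1 has 0 differences from PAU14 in this stretch, PAU10 has 1, PAU12 has 3 and PAU2 has 4. The map of identity between all PAU coding sequences shows the same block of near-identical copies.

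**Figure D1:**
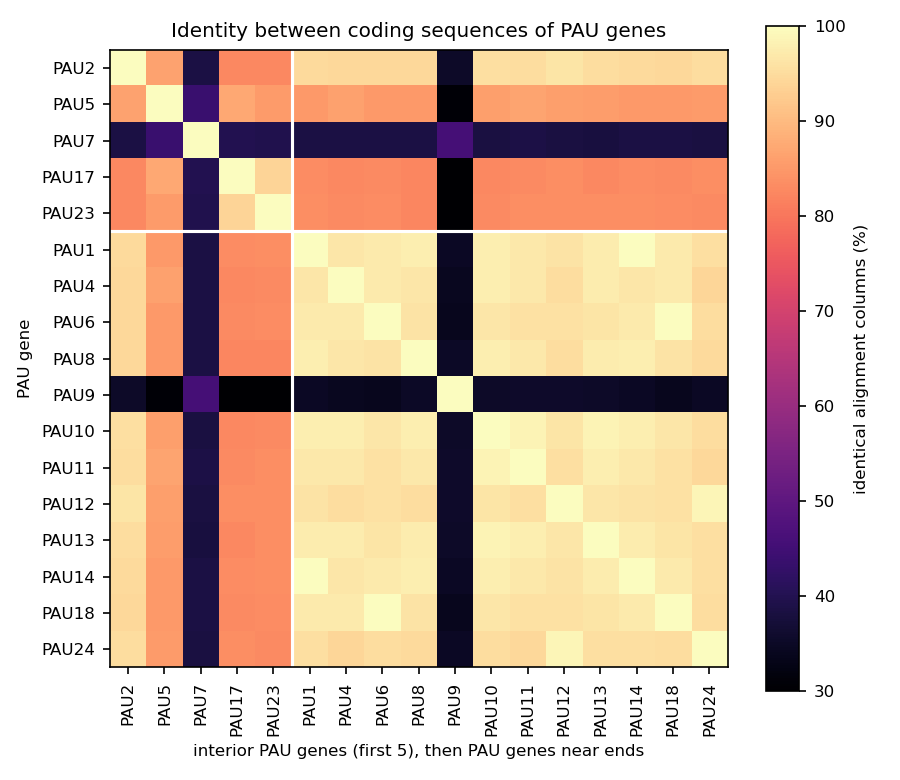
Percent of identical columns in pairwise global alignments of PAU coding sequences from the R64 reference, with the 5 interior genes first and the 12 genes near chromosome ends after the white line. Genes near ends form a block at 94.2 to 100% identity; the low rows of PAU7 and PAU9 are those of 2 shorter reading frames, of 168 and 129 bases.

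The coding copies do not all share their upstream sequence. In windows of 300 bases that begin 400 bases before the start codon, PAU1 and PAU14 were 100% identical and PAU12 and PAU24 were 99% identical, whereas PAU2 was between 48.8 and 55% identical to every other PAU, DAN and TIR gene. Windows of 2 genes that fell (TIR1 and TIR3) and of 2 that rose (DAN4 and PAU5) are printed with capitals at matches, on either strand, to 3 motifs. The motifs are TCGTATA, the core bound by the sterol regulators Upc2 and Ecm22, TCGTTNAG, an anaerobic response element described in the DAN and TIR promoters, and ATTGTT, the core bound by Rox1. They were read from the R64 reference, 5′ to 3′ towards the gene, at chrV:174848-175147 (plus strand), chrIX:333327-333626 (plus), chrX:715841-716140 (minus) and chrVI:99700-99999 (minus).
TIR1: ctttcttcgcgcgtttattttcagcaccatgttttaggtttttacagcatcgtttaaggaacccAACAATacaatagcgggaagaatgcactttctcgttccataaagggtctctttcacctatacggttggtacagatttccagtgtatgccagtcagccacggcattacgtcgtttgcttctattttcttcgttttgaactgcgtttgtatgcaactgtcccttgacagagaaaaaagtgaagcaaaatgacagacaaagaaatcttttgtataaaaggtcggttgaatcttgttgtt
TIR3: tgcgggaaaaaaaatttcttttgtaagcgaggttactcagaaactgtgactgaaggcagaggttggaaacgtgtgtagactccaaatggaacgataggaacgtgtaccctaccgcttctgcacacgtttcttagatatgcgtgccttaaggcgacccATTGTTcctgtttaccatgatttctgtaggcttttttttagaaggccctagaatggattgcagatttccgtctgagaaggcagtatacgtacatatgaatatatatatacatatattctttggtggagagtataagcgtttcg
DAN4: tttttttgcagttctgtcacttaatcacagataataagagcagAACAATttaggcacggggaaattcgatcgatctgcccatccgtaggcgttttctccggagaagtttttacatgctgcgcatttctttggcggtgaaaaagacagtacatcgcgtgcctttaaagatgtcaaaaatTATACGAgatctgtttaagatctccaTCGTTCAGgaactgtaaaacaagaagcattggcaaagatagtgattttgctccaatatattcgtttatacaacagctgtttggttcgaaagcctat
PAU5: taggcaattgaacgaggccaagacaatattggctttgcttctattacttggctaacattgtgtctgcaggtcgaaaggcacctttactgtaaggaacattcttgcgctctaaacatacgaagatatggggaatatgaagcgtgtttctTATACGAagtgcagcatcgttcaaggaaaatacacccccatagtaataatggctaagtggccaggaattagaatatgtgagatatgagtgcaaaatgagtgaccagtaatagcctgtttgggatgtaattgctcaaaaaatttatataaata
TCGTATA was present in the windows of 8 of the 22 genes (7 PAU genes and DAN4) and of 4.47% of 5948 genes of the genome. TCGTTNAG was present in 8 of the 22 (6 PAU genes, DAN4 and TIR4) and in 3.04% of all genes. ATTGTT was present in 12 of the 22, among them TIR1, TIR3 and TIR4 but not TIR2, and in 31.8% of all genes. The motifs overlap none of each other's letters in the windows printed. A match describes these letters in this window only.

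Changes were fitted with limma on log2(TPM + 1), which understates the change of genes of low level, and a gene was called changed at a Benjamini-Hochberg adjusted p under 0.05 over all genes tested. Of the 22 genes, 20 passed the filter of 1 TPM in at least 3 libraries in each family of strains, PAU4 only through the libraries of the deletion, where it is high, so that its call there is no support for a rise. Without PAU4, 14 of 19 genes were called higher and 4 lower in swi3del, and 14 and 3 in snf2del. PAU6 and PAU18 did not pass. Each mutant of a family was compared with the same 3 wild-type libraries, so the mutants' changes share those controls. In bulk RNA, a change in the number of cells that express a gene cannot be told apart from a change in the amount per cell.

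In all 5 mutants TIR1 and TIR3 fell, while DAN4 and most PAU genes rose in the deletions. Summed over the 4 TIR genes, RNA was 59.4 ± 4.34 TPM in the SWI3 wild type, 28.1 ± 1.75 in swi3-E815X and 35.6 ± 2.47 in swi3del. In the other family the TIR sum was 66.3 ± 3.25 TPM in the SNF2 wild type, 29.2 ± 3.89 for snf2-W935R, 30.5 ± 3.52 for snf2-Q928K and 40.6 ± 2.53 for snf2del. Summed over the 17 PAU genes, it was 105 ± 3.25 TPM in the SWI3 wild type, 98.3 ± 7.8 in swi3-E815X and 280 ± 26.4 in swi3del. The PAU sum was 55.4 ± 6.54 TPM in the SNF2 wild type, 86.8 ± 7.34 for snf2-W935R, 149 ± 10.3 for snf2-Q928K and 278 ± 6.29 for snf2del. These sums hold PAU1 and PAU14, whose values are not separate measurements and which together made up 46.5 ± 3.12 TPM with SWI3 and 14.9 ± 2.56 TPM with SNF2. Without both, the sum over the other 15 PAU genes was 58.1 ± 0.133 TPM in the SWI3 wild type, 40.5 ± 4 in the SNF2 wild type, 187 ± 15.9 in swi3del and 198 ± 14.1 in snf2del. The sum over all 22 genes was nearly even between snf2-W935R (129 ± 4.91 TPM) and its wild type (132 ± 9.32 TPM). The TIR part was lower in snf2-W935R and the PAU part was higher, though below that of the SWI3 wild type. Without PAU1 and PAU14 the PAU part of snf2-W935R was 53.9 ± 6.72 TPM, beside 40.5 ± 4 in the SNF2 wild type and 58.1 ± 0.133 in the SWI3 wild type. In the order of the group means, swi3-E815X, snf2-W935R and snf2-Q928K were the lowest for the TIR sum and their libraries overlapped, and for the PAU sum the libraries of the 2 deletions overlapped at the top.

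**Figure D2:**
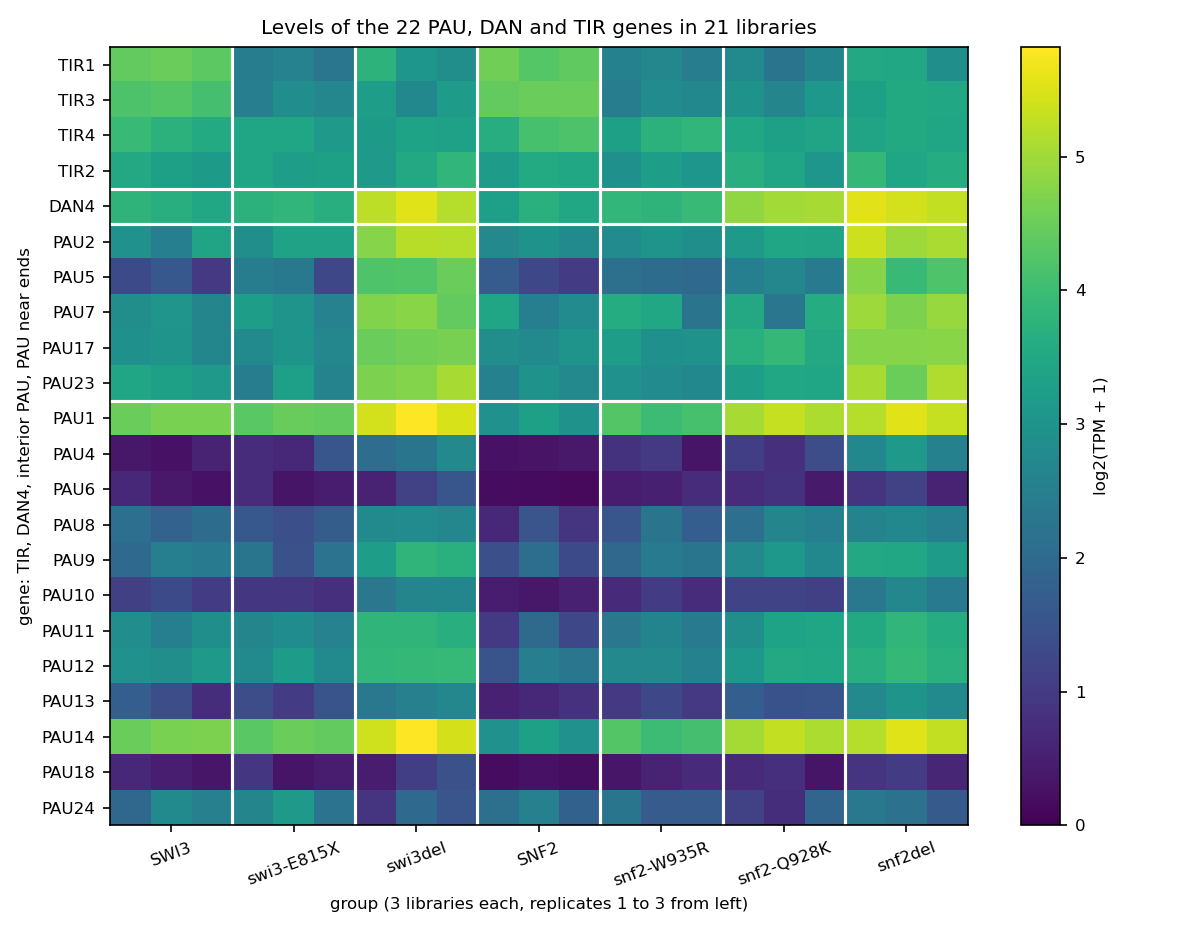
Level of each of the 22 genes (rows) in each of the 21 libraries (columns), as log2(TPM + 1), with lines between the 7 groups and between TIR genes, DAN4, interior PAU genes and PAU genes near ends. TIR1 and TIR3 are bright in the 6 wild-type libraries, whereas DAN4 and the interior PAU genes are bright in the 6 deletion libraries; PAU1 and PAU14 are darkest in the SNF2 wild type.

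In the SWI3 family, swi3del raised 15 of the 20 genes tested and lowered 4, where 47.4% of all genes tested were called higher and 24.3% lower. The median log2 change was 1.12 over the 20 genes and 0.23 over all genes tested. With median-ratio scaling, which moved the median of all genes to 0.01, it was 0.92. swi3-E815X raised 0 and lowered 2 of the 20, beside 3.06 and 5.77% of all genes; 1 gene, PAU5, was higher at an unadjusted p under 0.05, and the authors' deposited table gives no adjusted p for any of the genes in this comparison. In the SNF2 family, snf2del raised 15 and lowered 3 of the 20, beside 50.2 and 24.6% of all genes. The median was 1.94 over the 20 genes, 1.93 without PAU4 and 0.26 over all genes. snf2-Q928K raised 14 and lowered 4, beside 36.3 and 20.7%, and snf2-W935R raised 6 and lowered 2, beside 16.3 and 10.9%. The count for snf2-W935R was 3 without the third library of the SNF2 wild type. Without PAU4, 13 of 19 genes rose and 4 fell in snf2-Q928K, and 6 rose and 2 fell in snf2-W935R.

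**Figure D3:**
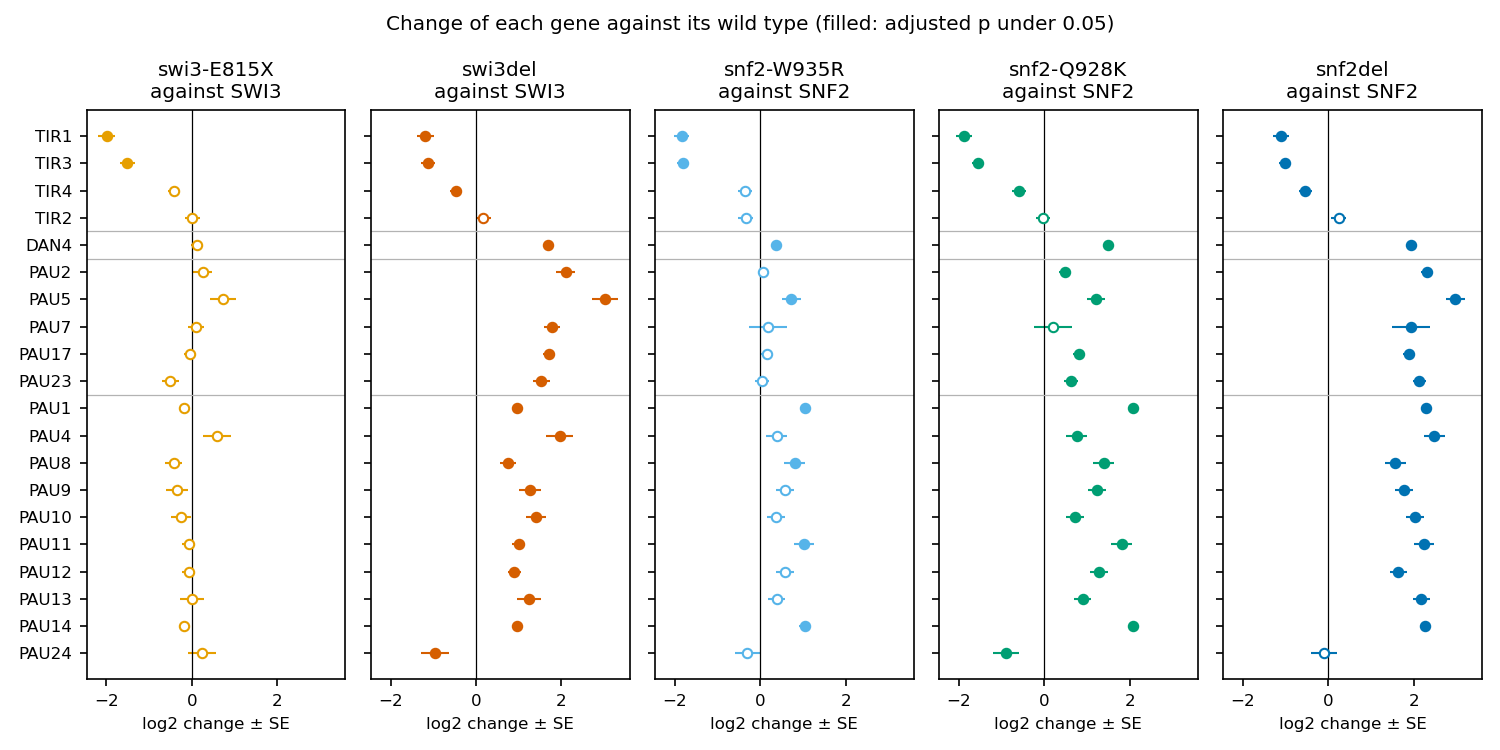
Change of each of the 20 genes tested against the wild type of its family, as the difference in log2(TPM + 1) ± SE from limma (n = 3 libraries per group), with filled points at an adjusted p under 0.05. TIR1 and TIR3 lie left of 0 in all 5 panels, at -1.01 to -1.99, while PAU genes and DAN4 lie right of 0 in the deletions, except PAU24.

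TIR1 (YER011W; chromosome V, 175248 to 176012, plus strand) encodes a cell wall mannoprotein known to be induced by cold shock and by lack of oxygen. Its libraries held 20.5, 21.6 and 19.4 TPM in the SWI3 wild type, 4.44, 4.97 and 3.91 for swi3-E815X and 12.5, 7.39 and 6.39 for swi3del. In the other family they held 22.6, 18.5 and 20 TPM in the SNF2 wild type, 4.93, 5.47 and 4.5 for snf2-W935R, 5.75, 3.7 and 5.18 for snf2-Q928K and 10.5, 10.1 and 6.51 for snf2del. Every mutant library was below every wild-type library. The fall in log2(TPM + 1) was -1.99 ± 0.20 (SE; adjusted p = 2.95e-05, limma) in swi3-E815X and -1.19 ± 0.20 (adjusted p = 0.000183, limma) in swi3del. It was -1.84 ± 0.18 for snf2-W935R, -1.88 ± 0.18 for snf2-Q928K and -1.11 ± 0.18 for snf2del (adjusted p 2.26e-06, 6.11e-07 and 4.77e-05, limma). The means of the 3 alleles were 0.217 to 0.243 of the wild type's mean and those of the deletions 0.427 and 0.443.

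The allele strains were also compared directly with the strain that has no copy of the subunit, and TIR1 was lower in all 3 alleles. The difference from the deletion was -0.80 ± 0.20 for swi3-E815X (adjusted p = 0.00356, limma), -0.73 ± 0.18 for snf2-W935R (0.00203) and -0.76 ± 0.18 for snf2-Q928K (0.00196), while the median over all genes in these comparisons was -0.25, -0.23 and -0.14. In each of them all 3 allele libraries lay below all 3 deletion libraries. Between snf2-Q928K and snf2-W935R, TIR1 differed by -0.03 ± 0.18 (adjusted p = 0.895, limma).

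TIR3 (YIL011W; chromosome IX, 333727 to 334536, plus strand), a relative of TIR1 that is needed for growth without oxygen, went the same way. Its libraries held 17.4, 18.2 and 16.2 TPM in the SWI3 wild type, 4.63, 6.21 and 5.48 for swi3-E815X and 8.67, 5.53 and 8.28 for swi3del. They held 20.4, 21.4 and 21.4 TPM in the SNF2 wild type, 4.4, 5.98 and 5.56 for snf2-W935R, 6.79, 5.24 and 7.64 for snf2-Q928K and 8.9, 10.6 and 10.3 for snf2del. No mutant library reached a wild-type one. The log2 change was -1.51 ± 0.17 in swi3-E815X, -1.12 ± 0.17 in swi3del, -1.81 ± 0.14 for snf2-W935R, -1.56 ± 0.14 for snf2-Q928K and -1.01 ± 0.14 for snf2del, with adjusted p of 8e-05 or smaller (limma). Against snf2del, TIR3 was lower by -0.80 ± 0.14 in snf2-W935R (adjusted p = 0.000149, limma) and by -0.54 ± 0.14 in snf2-Q928K (0.00414). Against swi3del the difference in swi3-E815X was -0.39 ± 0.17 (adjusted p = 0.0599, limma), the libraries overlapped, and without the second swi3del library it was -0.56 (adjusted p = 0.00594, limma).

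TIR4 and TIR2, the neighbouring pair, changed less. TIR4 (YOR009W), also needed for anaerobic growth, held 14.4, 12.3 and 10.8 TPM in the SWI3 wild type, 9.86, 9.67 and 7.84 for swi3-E815X and 7.97, 9.33 and 9.11 for swi3del. It held 11.4, 16.5 and 17.4 TPM in the SNF2 wild type, 8.87, 12.3 and 13.3 for snf2-W935R, 10, 8.86 and 9.5 for snf2-Q928K and 9.53, 10.6 and 9.74 for snf2del. TIR4 fell by 0.46 in swi3del (SE 0.14, adjusted p = 0.0119, limma), by 0.60 in snf2-Q928K (SE 0.16, 0.00516) and by 0.54 in snf2del (SE 0.16, 0.00734). The change was -0.41 ± 0.14 in swi3-E815X (adjusted p = 0.102, limma) and -0.36 ± 0.16 in snf2-W935R (0.109), neither of them called. Without the first library of the SWI3 wild type the swi3del change was -0.36 and not called (adjusted p = 0.053, limma), and without the first library of the SNF2 wild type the snf2-W935R change was -0.54 and called (0.0193).

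TIR2 (YOR010C), the closest relative of TIR1 at 73.2% identity, also known as a cold-shock gene, held 10.5, 8.84 and 8.08 TPM in the SWI3 wild type, 9.88, 8.61 and 8.93 for swi3-E815X and 7.82, 10.5 and 13.3 for swi3del. It held 8.17, 10.7 and 10.2 TPM in the SNF2 wild type, 6.59, 8.39 and 7.39 for snf2-W935R, 11.8, 9.65 and 7.3 for snf2-Q928K and 13.8, 9.88 and 11.2 for snf2del. Mutant and wild-type libraries overlapped in all 5 comparisons, and the log2 change lay between -0.34 and 0.24, with adjusted p from 0.163 to 0.992 (limma). A p above the threshold does not show that TIR2 was the same in these strains. TIR2 was lower in snf2-W935R than in snf2del by -0.57 ± 0.17 (adjusted p = 0.0075, limma), a call that was lost with median-ratio scaling at -0.36 (0.0919).

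**Figure D4:**
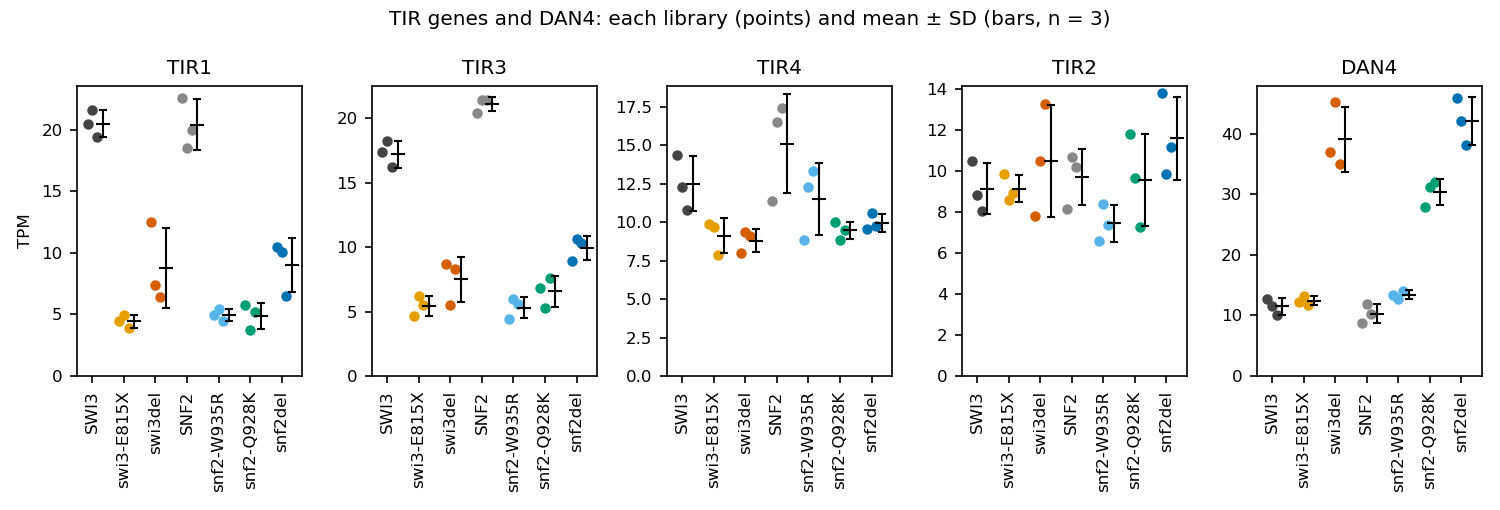
TPM of the 4 TIR genes and DAN4 in each library (points) by group, with the mean and SD of 3 libraries as a bar at the right of each group, on a linear axis starting at 0 in each panel. TIR1 and TIR3 are at 16.2 TPM or above in the wild types and at 12.5 TPM or below in all mutants; DAN4 climbs from 10.3 TPM in the SNF2 wild type to 42.1 TPM in snf2del.

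DAN4 (YJR151C; chromosome X, 712255 to 715740, minus strand) encodes a long cell wall mannoprotein that is known for being made without oxygen. It rose in both deletions and in snf2-Q928K. DAN4 libraries held 12.8, 11.5 and 10 TPM in the SWI3 wild type, 12.3, 13.2 and 11.7 for swi3-E815X and 37, 45.3 and 35.1 for swi3del. They held 8.7, 11.9 and 10.2 TPM in the SNF2 wild type, 13.4, 12.7 and 14.1 for snf2-W935R, 28, 31.2 and 32.1 for snf2-Q928K and 46, 42.2 and 38.1 for snf2del. The 2 deletions and snf2-Q928K stood apart above both wild types, and the deletions above snf2-Q928K.

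The log2 rise of DAN4 was 1.69 ± 0.12 in swi3del (adjusted p = 1.35e-07, limma), or 3.4 times in mean TPM, and 1.94 ± 0.11 in snf2del (7.44e-10), or 4.09 times. It was 1.49 ± 0.11 in snf2-Q928K (adjusted p = 3.6e-08, limma), which left DAN4 below snf2del by -0.45 ± 0.11 (0.00229). In snf2-W935R the rise was 0.36 ± 0.11 (adjusted p = 0.0217, limma), and leaving out single libraries of either group gave 0.26 to 0.47, with the call lost without the first (0.26) or the third (0.36) SNF2 library and without the first (0.36) or the third (0.33) snf2-W935R library. In swi3-E815X it was 0.11 ± 0.12 (adjusted p = 0.662, limma). snf2-Q928K held more DAN4 RNA than snf2-W935R, by 1.12 ± 0.11 (adjusted p = 2.95e-06, limma), the largest difference between these alleles among the 20 genes.

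All 5 interior PAU genes rose in both deletions. PAU5 (YFL020C; chromosome VI, 99231 to 99599, minus strand), the gene with the largest change of the family on the log2(TPM + 1) scale, held 1.47, 2.03 and 0.959 TPM in the SWI3 wild type, 4.47, 4.11 and 1.38 for swi3-E815X and 17.6, 18 and 21.3 for swi3del. It held 2.24, 1.41 and 1.04 TPM in the SNF2 wild type, 3.42, 3.16 and 2.98 for snf2-W935R, 4.74, 5.46 and 4.34 for snf2-Q928K and 26.1, 14.2 and 17.6 for snf2del. Its mean was 12.8 times that of the wild type in swi3del and 12.4 times in snf2del (PAU4, of much lower level, reached 12.9 and 23.8 times and PAU10 12.5 times in snf2del), with log2 changes of 3.02 ± 0.30 and 2.97 ± 0.22 (adjusted p 2.32e-06 and 1.09e-08, limma). PAU5 also rose in snf2-Q928K, by 1.21 ± 0.22 (adjusted p = 0.000241, limma), and in snf2-W935R, by 0.73 ± 0.22 (0.02). The call in snf2-W935R was lost without the second (0.70) or the third (0.58) SNF2 library and without the first (0.69) or second (0.74) snf2-W935R library. In swi3-E815X the change was 0.73 ± 0.30 (adjusted p = 0.173, limma), and 1.11 with a call (0.00992) without the third library of the group, the only one of them within the range of the wild type.

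PAU2 (YEL049W; chromosome V, 63728 to 64090, plus strand) held 6.67, 4.73 and 9.51 TPM in the SWI3 wild type, 6.33, 9.25 and 9.27 for swi3-E815X and 26.3, 35.9 and 34.9 for swi3del. It held 5.68, 6.99 and 5.85 TPM in the SNF2 wild type, 5.99, 7.08 and 6.44 for snf2-W935R, 7.79, 9.64 and 9.56 for snf2-Q928K and 40.3, 30.5 and 32.6 for snf2del. Only the deletion libraries stood far from the rest, with log2 rises of 2.10 ± 0.22 and 2.30 ± 0.13 (adjusted p 7.94e-06 and 9.92e-10, limma), beside 0.48 ± 0.13 in snf2-Q928K (0.00663).

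PAU17 (YLL025W) and PAU23 (YLR037C), on the left and right arms of chromosome XII, resembled PAU2. PAU17 held 6.57, 7.1 and 5.35 TPM in the SWI3 wild type, 5.8, 7.09 and 5.52 for swi3-E815X, 21.3, 23 and 23.8 for swi3del, 6.29, 5.89 and 7.06 in the SNF2 wild type, 8.55, 6.54 and 6.8 for snf2-W935R, 11.9, 13.8 and 10.4 for snf2-Q928K and 26.2, 26.1 and 26.4 for snf2del. PAU23 held 9.75, 8.97 and 7.76 TPM in the SWI3 wild type, 4.43, 8.78 and 5.08 for swi3-E815X, 24.4, 25.9 and 32.2 for swi3del, 4.92, 6.93 and 5.71 in the SNF2 wild type, 6.65, 5.99 and 5.57 for snf2-W935R, 8.65, 10.1 and 9.93 for snf2-Q928K and 32.2, 21.8 and 34 for snf2del. Against the wild type of the family, both stood apart in the deletions and, by less, in snf2-Q928K. The snf2-Q928K libraries of PAU23 overlapped those of the SWI3 wild type, and against that wild type its change was 0.11 ± 0.19 (adjusted p = 0.657, limma), that of PAU2 0.37 ± 0.18 (0.0999) and that of PAU17 0.83 ± 0.13 (1.3e-05). In swi3-E815X the PAU23 change was -0.51 ± 0.20 (adjusted p = 0.159, limma), and -0.77 with a call (0.011) without its second library.

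PAU7 (YAR020C) is a short reading frame on chromosome I whose 50-base stretches were all unique in the genome. PAU7 held 6.38, 7.25 and 5.26 TPM in the SWI3 wild type, 8.54, 7.12 and 5 for swi3-E815X, 25.4, 26.5 and 20.4 for swi3del, 9.81, 4.75 and 6.04 in the SNF2 wild type, 11.2, 10.3 and 3.75 for snf2-W935R, 10.4, 3.88 and 11.2 for snf2-Q928K and 30.2, 24.6 and 29.4 for snf2del. It was scattered in the SNF2 family outside the deletion and was called in the 2 deletions only, at 1.78 ± 0.18 and 1.93 ± 0.44 (adjusted p 3.27e-06 and 0.0023, limma). Over the 5 interior PAU genes, log2 rises ran from 1.53 to 3.02 in swi3del and from 1.88 to 2.97 in snf2del. In snf2-Q928K they ran from 0.21 to 1.21 with 4 of 5 called, and in snf2-W935R from 0.05 to 0.73 with PAU5 called.

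Among PAU genes near chromosome ends, the 2 wild types already differed. PAU14 (YIL176C; chromosome IX, 8793 to 9155, minus strand) held 21.4, 24 and 24.3 TPM in the SWI3 wild type and 6.71, 8.93 and 6.64 TPM in the SNF2 wild type. PAU1 (YJL223C), its identical copy on chromosome X at 8776 to 9138, held 21.5, 24.1 and 24.2 and 6.71, 8.93 and 6.79 TPM, values that follow those of PAU14 closely and are not a second measurement. The SNF2 wild type was lower by -1.53 ± 0.12 for each (adjusted p 2.18e-08 for PAU14 and 2.17e-08 for PAU1, limma). PAU8, PAU10, PAU11 and PAU12 were lower as well, by -0.97 ± 0.22, -0.69 ± 0.19, -1.33 ± 0.21 and -0.89 ± 0.19, with adjusted p from 0.000217 to 0.0464 (limma).

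When the wild types were compared, 6 of the 22 genes were called lower with SNF2 than with SWI3 and 0 higher (0 also at an unadjusted p under 0.05), beside 2.56 and 1.41% of all genes. All 6 were PAU genes near ends. Of the 10 other PAU, DAN and TIR genes in the interior, 0 were called, with changes between -0.53 and 0.27. The difference was not confined to the family, since 70 of 215 other genes within 20 kb of an end were also lower, 3 were higher and their median was -0.25. In these wild types SIR4, which encodes a silencing protein of chromosome ends, was at 38.5 ± 3.58 TPM with SNF2 and 19.2 ± 0.922 TPM with SWI3, and its part in the difference was not tested. With the 6 wild-type libraries alone in the fit, 3 of the genes were called, and 3 without the first SNF2 library.

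Since every SNF2 allele was compared with this low wild type, the size of the changes of most PAU genes near ends depends on it. Some calls in snf2-W935R and snf2-Q928K depend on it as well. Every rise called in snf2del was also called against the SWI3 wild type. PAU14 held 18.2, 14.9 and 16.2 TPM in snf2-W935R, 31.8, 37.9 and 33.4 for snf2-Q928K and 34.9, 45.6 and 38.3 for snf2del. In the SWI3 family it held 19.2, 21.3 and 20.5 TPM in swi3-E815X and 41.4, 54.9 and 42.6 for swi3del. Against its own wild type PAU14 rose by 1.05 ± 0.13 in snf2-W935R (adjusted p = 1.62e-05, limma), by 2.08 ± 0.13 in snf2-Q928K (6.05e-09), by 2.27 ± 0.13 in snf2del (6.6e-10) and by 0.96 ± 0.11 in swi3del (8.72e-06). In swi3-E815X the change was -0.18 ± 0.11 (0.363).

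Set against the SWI3 wild type instead, a comparison added after the data were seen, PAU14 was lower in snf2-W935R by -0.48 ± 0.12 (adjusted p = 0.00568, limma) and higher in snf2-Q928K by 0.54 ± 0.12 (0.000854) and in snf2del by 0.74 ± 0.12 (1.69e-05). Among genes called higher in snf2-W935R against their own wild type, the direction thus turned for PAU14 and for PAU1 (-0.48, adjusted p = 0.00548, limma). It also turned for PAU11 (-0.30, 0.291) and PAU8 (-0.17, 0.596), neither of them called with that control. With that control 1 of the genes was called higher in snf2-W935R (PAU5) and 4 lower (PAU1, PAU14, TIR1 and TIR3), beside 16.5 and 14.2% of all genes. In snf2-Q928K 6 were called higher and 3 lower (PAU24, TIR1 and TIR3), beside 35.1 and 19.8%, and in snf2del 15 and 2 (TIR1 and TIR3), beside 50.7 and 25.1%. The snf2-Q928K changes of TIR1, TIR3 and DAN4 were then -1.89, -1.28 and 1.34, beside -1.88, -1.56 and 1.49 against their own wild type.

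PAU11 (YGL261C) held 6.18, 4.68 and 6.5 TPM in the SWI3 wild type, 5.25, 6.11 and 5 for swi3-E815X, 13, 12.9 and 11.7 for swi3del, 1, 3.01 and 1.39 in the SNF2 wild type, 3.98, 5.22 and 4.27 for snf2-W935R, 6.3, 9.42 and 9.95 for snf2-Q928K and 10.6, 13.3 and 11.2 for snf2del. PAU12 (YGR294W) held 6.75, 6.29 and 7.73 TPM in the SWI3 wild type, 5.86, 8.18 and 5.8 for swi3-E815X, 13.5, 13.7 and 14 for swi3del, 1.86, 4.63 and 3.84 in the SNF2 wild type, 5.65, 5.63 and 4.86 for snf2-W935R, 7.6, 10.5 and 10.2 for snf2-Q928K and 11.6, 13.6 and 11.9 for snf2del. For both, the SNF2 wild type was the lowest group and its libraries lay below all those of the SWI3 wild type. PAU9 (YBL108C-A), a short frame, held 2.96, 4.74 and 4.35 TPM in the SWI3 wild type, 3.76, 1.72 and 3.67 for swi3-E815X, 8.48, 13 and 11.9 for swi3del, 1.69, 3.31 and 1.47 in the SNF2 wild type, 2.87, 4.15 and 3.79 for snf2-W935R, 5.7, 7.62 and 5.6 for snf2-Q928K and 10.4, 10.1 and 8.15 for snf2del, with the deletions above the rest.

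PAU4, which passed the filter only through the deletions, is left out here. Of the 9 other PAU genes near ends that were tested, 8 rose in swi3del, 8 in snf2del and 8 in snf2-Q928K, all but PAU24. In snf2-W935R 4 rose (PAU1, PAU8, PAU11 and PAU14). Against the SWI3 wild type the changes of these 4 in snf2-W935R were -0.48, -0.17, -0.30 and -0.48, so their rise depends on the control. The median log2 change of the 9 genes was 0.97 in swi3del, 2.02 in snf2del, 1.27 in snf2-Q928K and 0.58 in snf2-W935R. Of 215 other genes near ends, 160 rose in swi3del, 183 in snf2del, 154 in snf2-Q928K and 102 in snf2-W935R, with medians of 0.77, 1.35, 0.79 and 0.38. Over all genes, 47.4, 50.2, 36.3 and 16.3% were called higher in these strains, with medians of 0.23, 0.26, 0.10 and 0.03. A higher level was thus particular neither to PAU genes nor to genes near chromosome ends. The control of snf2del and the SNF2 alleles was the SNF2 wild type, in which 70 of the 215 were lower than in the SWI3 wild type.

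**Figure D5:**
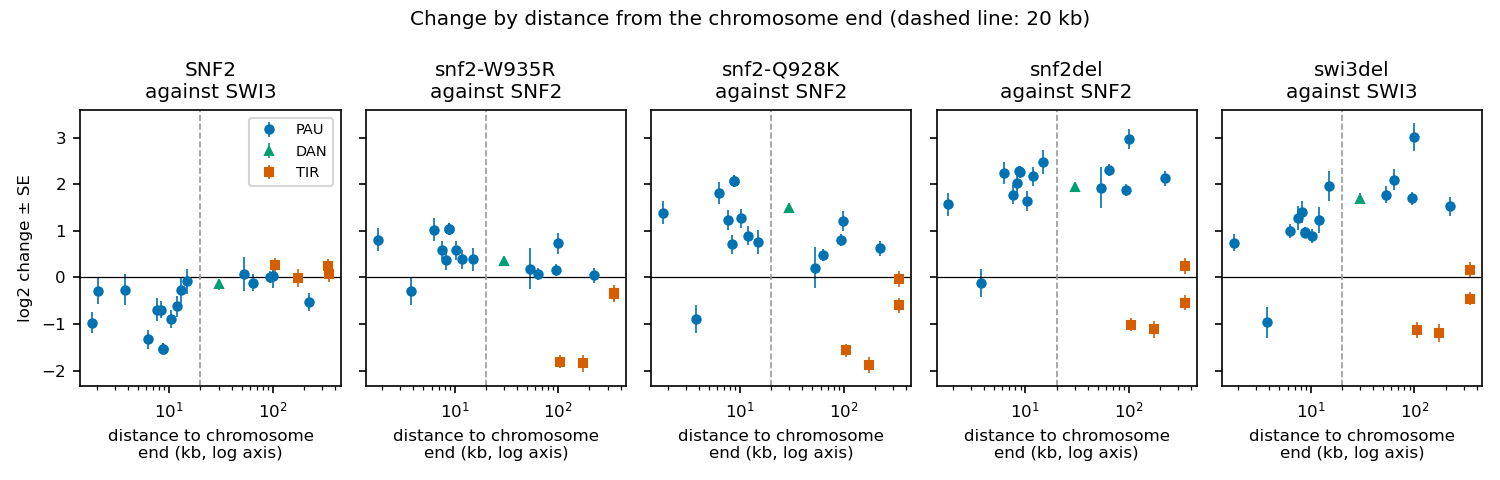
Log2 change ± SE from limma (n = 3 libraries per group) of each gene tested against its distance from the nearest chromosome end (log axis, in kb, dashed line at 20 kb), in 5 comparisons. Of the genes left of the line, 6 were called lower with SNF2 than with SWI3 when the wild types were compared; in snf2del PAU genes on both sides of the line lie near 2, except PAU24.

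PAU24 (YBR301W; chromosome II, 809057 to 809419, plus strand) did not follow the other copies, although its upstream window was 99% identical to that of PAU12. It held 2.92, 5.81 and 4.81 TPM in the SWI3 wild type, 5.24, 7.76 and 3.62 for swi3-E815X and 0.827, 2.95 and 1.9 for swi3del. It held 3.41, 4.78 and 2.51 TPM in the SNF2 wild type, 3.8, 2.18 and 2.16 for snf2-W935R, 1.21, 0.69 and 2.71 for snf2-Q928K and 4.03, 3.5 and 2.15 for snf2del. PAU24 was called lower in swi3del (-0.96 ± 0.33, adjusted p = 0.0209, limma) and in snf2-Q928K (-0.90 ± 0.30, 0.0201), with overlapping libraries in both. The swi3del call was lost without the second (-0.79) or the third (-0.91) SWI3 library or the first swi3del library (-0.67), and the snf2-Q928K call without the second SNF2 library (-0.71) or the first (-0.84) or the second (-0.65) snf2-Q928K library. In snf2del the change was -0.11 ± 0.30 (adjusted p = 0.751, limma). Of its 50-base stretches, 47.1% were unique, so part of its reads could not be told from those of other copies.

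The remaining PAU genes were low throughout. PAU4 ranged from 0.223 to 7.91 TPM over all libraries, PAU8 from 0.592 to 6.05, PAU10 from 0.293 to 5.47 and PAU13 from 0.447 to 7.11. Each had its highest mean in a deletion. PAU8, PAU10 and PAU13 were called higher in both deletions. PAU4 held 0.291, 0.223 and 0.471 TPM in the SWI3 wild type and 3.25, 3.82 and 5.66 for swi3del, and 0.223, 0.234 and 0.315 TPM in the SNF2 wild type and 5.57, 7.91 and 4.88 for snf2del. PAU6 and PAU18, a pair with the same coding sequence, stayed between 0.105 and 1.93 TPM and were tested only in the fit over all libraries. Both passed its filter only through the deletions. PAU6 reached 1 TPM at 1.19 and 1.93 in swi3del and at 1.23 in snf2del. PAU18 reached it at 1.12 and 1.73 in swi3del and at 1.01 in snf2del. Neither was called between the wild types or for the difference between the deletions, which is no evidence of equal levels.

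Set against snf2del, the SNF2 alleles held less RNA for most PAU genes. All 5 interior PAU genes were lower in snf2-Q928K than in snf2del, by -1.07 to -1.82. Of the 20 genes, 13 were called lower and 0 higher, beside 40.5 and 22.3% of all genes. PAU4 passed the filter only through the deletion, so its place below snf2del is no support, and without it 12 of 19 were lower. Of the 9 other PAU genes near ends that were tested, 4 were lower, by -0.54 to -1.31. The remaining 5 were not called (PAU1, PAU8, PAU11, PAU12 and PAU14). Among the 4, the call of PAU9 (-0.54) was lost with a pseudocount of 0.1 (adjusted p = 0.0738, limma), with median-ratio scaling (0.132) and with all 21 libraries in one fit (0.0605). It was also lost without any of 4 single libraries. The call of PAU24 (-0.79) was lost with median-ratio scaling (0.062) and without any of 4 single libraries. PAU14 differed by -0.19 ± 0.13 (adjusted p = 0.191, limma) and PAU2 by -1.82 ± 0.13 (8.15e-08). In snf2-W935R 18 of the 20 genes were lower than in snf2del and 0 higher, beside 48.5 and 23.4%, the exceptions being PAU24 and TIR4. Without PAU4, 17 of 19 were lower. Summed TPM of the interior PAU genes was 43.9 ± 1.35 in snf2-Q928K and 137 ± 19 in snf2del, and that of the genes near ends 105 ± 10.5 and 140 ± 17.7. Whether the difference between alleles and deletion itself differed between the 2 classes was not tested.

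Between the 2 alleles, snf2-Q928K was higher than snf2-W935R for 9 of the 20 genes and lower for 0 (0 also at an unadjusted p under 0.05), beside 30 and 14.1% of all genes. Besides DAN4 these were PAU1 (1.03 ± 0.12), PAU14 (1.02 ± 0.13), PAU11, PAU12, PAU9, PAU17, PAU23 and PAU2, while 0 of the TIR genes were called. The calls of PAU2, PAU9, PAU11 and PAU12 were each lost when certain single libraries were left out, with adjusted p up to 0.0915 (limma). In swi3-E815X, 16 genes were lower than in swi3del and 1 higher (PAU24, by 1.20 ± 0.33, adjusted p = 0.00688, limma), beside 48 and 20.9% of all genes. Without PAU4, 15 of 19 were lower.

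Whether the deletions differed in effect was tested as the snf2del change minus the swi3del change. It was higher for 3 of the 22 genes and lower for 0 (0 also at an unadjusted p under 0.05), beside 1.42 and 0.859% of all genes. The 3 were PAU1 (1.30 ± 0.17, adjusted p = 5.29e-05, limma), PAU14 (1.32 ± 0.17, 5.29e-05) and PAU11 (1.24 ± 0.29, 0.0226), which were also lower in the SNF2 wild type. The deletions themselves were close for these genes, with PAU14 at 46.3 ± 7.47 TPM in swi3del and 39.6 ± 5.48 TPM in snf2del. For TIR1, TIR3 and DAN4 the difference was 0.08 ± 0.28, 0.11 ± 0.22 and 0.26 ± 0.16 (adjusted p 0.939, 0.878 and 0.523, limma).

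Regulators known to act on these genes were called in both directions. Of 9 listed oxygen and sterol regulators, 4 rose and 3 fell in swi3del (47.4 and 24.3% of all genes) and 5 and 3 in snf2del (50.2 and 24.6%). The counts were 5 and 3 in snf2-W935R (16.3 and 10.9%), 6 and 2 in snf2-Q928K (36.3 and 20.7%), and 1 and 1 in swi3-E815X (3.06 and 5.77%). The median of the list was -0.01 in swi3del and 0.27 in snf2del, beside 0.23 and 0.26 over all genes. UPC2, the activator of anaerobic genes, was at 23.2 ± 2.03 TPM in the SNF2 wild type, 10.7 ± 1.21 for snf2-W935R, 7.85 ± 0.703 for snf2-Q928K and 6.41 ± 0.856 for snf2del. In the SWI3 family UPC2 was at 13 ± 1.66 TPM in the wild type, 13.3 ± 0.141 in swi3-E815X and 6.23 ± 0.827 in swi3del. ROX1, the repressor, rose by 1.27 ± 0.15 in swi3del, 1.12 ± 0.08 in snf2del, 1.30 ± 0.08 in snf2-Q928K and 0.50 ± 0.08 in snf2-W935R (adjusted p 2.5e-05, 6.16e-09, 4.9e-09 and 0.0002, limma). ECM22, a relative of UPC2, rose in all 5 mutants, by 0.49 to 1.18. No part of these changes in those of the PAU, DAN and TIR genes was tested.

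Other genes known for low-oxygen expression were called in both directions. Of 12 listed, 7 rose and 4 fell in swi3del (47.4 and 24.3% of all genes) and 8 and 4 in snf2del (50.2 and 24.6%), with medians of 0.40 and 0.68 beside 0.23 and 0.26 over all genes. The counts were 6 and 2 in snf2-Q928K (36.3 and 20.7%), 3 and 3 in snf2-W935R (16.3 and 10.9%), and 2 and 2 in swi3-E815X (3.06 and 5.77%). OLE1, the fatty acid desaturase, rose by 2.38 ± 0.08 in swi3del and 2.78 ± 0.08 in snf2del, and CYC7, the low-oxygen form of cytochrome c, by 3.17 ± 0.24 and 3.17 ± 0.15. AAC3, the anaerobic ADP/ATP carrier, fell by 2.83 and 2.31, and ANB1, the anaerobic form of translation factor eIF5A, by 1.68 and 1.51. The adjusted p of these 4 genes were 0.000222 or smaller in both deletions (limma).

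Of 8 other listed cell wall mannoproteins, 4 rose and 3 fell in swi3del (47.4 and 24.3% of all genes), snf2del (50.2 and 24.6%) and snf2-Q928K (36.3 and 20.7%). In snf2-W935R 3 rose and 2 fell (16.3 and 10.9%), and in swi3-E815X 0 rose and 3 fell (3.06 and 5.77%). At an unadjusted p under 0.05, 1 of them (CCW12) was higher in swi3-E815X. SED1, a wall protein of stationary cells, rose by 2.86 ± 0.07 in swi3del and 2.87 ± 0.14 in snf2del, and CWP1 fell by 2.11 and 1.72. YGP1, a secreted glycoprotein, fell by 2.58 in swi3-E815X, a larger change than that of TIR1 in the same strain. Of 6 silencing genes, 2 rose and 1 fell in swi3del, 2 and 2 in snf2del, 0 and 2 in snf2-W935R, 1 and 2 in snf2-Q928K, and 0 and 0 in swi3-E815X (1, SIR1, was higher at an unadjusted p under 0.05). These counts stand beside the same shares of all genes. SIR1 rose by 0.92 ± 0.12 in swi3del and 0.69 ± 0.13 in snf2del, and SIR3 by 0.30 ± 0.11 and 0.36 ± 0.09 (adjusted p from 3.14e-05 to 0.0317, limma). With median-ratio scaling SIR3 was at 0.08 (adjusted p = 0.539, limma) and 0.11 (0.183), neither of them called. SIR1 stayed higher, at 0.70 and 0.45. The same scaling called RIF1 lower in swi3del and snf2del, by -0.24 and -0.29 (adjusted p 0.0354 and 0.00467, limma). It also called HDA1 lower, by -0.41 and -0.42 (0.000907 and 9.67e-05), and SIR4 in swi3del, by -0.33 (0.00777). That scaling moved the median of all genes from 0.23 to 0.01 in swi3del and from 0.26 to 0.01 in snf2del. The shares of all genes called lower with it are not given here, so these calls have no background beside them. SIR4 fell in snf2del (-0.89 ± 0.11), snf2-W935R (-0.70 ± 0.11) and snf2-Q928K (-0.85 ± 0.11). These falls are against the SNF2 wild type, whose mean SIR4 level was 2.01 times that of the SWI3 wild type. In swi3del mean SIR4 TPM was 0.927 of its own wild type's. Changes of SIR4 in the SNF2 family against the SWI3 wild type are not given here. SIR2 fell in swi3del (-0.87 ± 0.09), snf2del (-0.73 ± 0.08), snf2-W935R (-0.34 ± 0.08) and snf2-Q928K (-1.03 ± 0.08), with adjusted p of 0.00625 or smaller (limma).

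The authors' deposited tables list 17 of the 22 genes, and 13 in the table of snf2del, which holds only called genes. PAU1, PAU6, PAU11, PAU14 and PAU18 are not among them. By the authors' deposited values, 12 genes rose and 1 fell in snf2del, 6 rose and 2 fell in swi3del, and 4 rose and 2 fell in snf2-Q928K. The 6 in swi3del were DAN4, PAU2, PAU5, PAU7, PAU17 and PAU23, all in the interior. None of the listed PAU genes near ends was called there (authors' deposited adjusted p from 0.122 to 0.466). Their authors' deposited log2 changes in swi3del were still 0.83 to 1.43, with standard errors of 0.43 to 0.89, except PAU24 at -1.09 (SE 1.04). The gene that fell in snf2del was TIR3, and TIR1 is not listed in that table. For snf2-W935R and swi3-E815X these tables give no adjusted p for any of the 17. The authors' deposited log2 change of TIR1 was -1.88 in swi3del, -2.20 in swi3-E815X, -1.89 in snf2-Q928K and -1.63 in snf2-W935R, so that in these tables the fall in swi3-E815X was less far from that in swi3del than on the log2(TPM + 1) scale. For PAU10 the authors' deposited table of snf2-Q928K gives a mean signal of 6.98, above both group means of the table of levels, 1.24 ± 0.0817 TPM in snf2-Q928K and 0.366 ± 0.0774 TPM in the SNF2 wild type. That signal was also above both group means for PAU4, PAU8, PAU9, PAU12 (13.7, beside 9.41 ± 1.58 and 3.45 ± 1.43 TPM) and PAU13, but not for PAU24. Over genes with a mean of 10 TPM or more in this comparison, the median ratio of that signal to mean TPM was 0.981. For PAU2, in the interior, the same table gives 10.4, beside 9 ± 1.05 and 6.17 ± 0.71 TPM.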

How the data were processed

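Poly(A) RNA-seq of 21 libraries in 7 groups of 3 was analysed from the deposited table of TPM values per gene. The submitters' processing notes name HISAT2, StringTie, DESeq2 and, for the genome, sacCer3 and R64, without versions, settings or order. The library kit keeps strand per the labels; whether counting used it, and how reads that match several genes were treated, is not given in the sources used here. The authors' 5 deposited tables of single comparisons hold a mean signal per gene, a log2 fold change with its standard error, a score (the test statistic), and p-values with adjusted p-values; they were copied for the 22 genes and not tested again. TPM keeps no depth, so the depth of each library is unknown and no counting interval is given; TPM summed to 960811 to 1000396 per library.

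Levels were tested with limma 3.58.1 in R 4.3.3 (trend and robust settings, statmod 1.5.0) on log2(TPM + 1) for genes at 1 TPM or more in at least 3 libraries, with Benjamini-Hochberg adjustment over all genes tested and a threshold of 0.05. A count test had been provided for in case the table held counts. The 9 libraries of the SWI3 family were fitted apart from the 12 of the SNF2 family, and comparisons across them in all 21; 11 comparisons were made. The test was checked on simulated data. The 3 replicates of a group were biological and from separate days, per the labels.

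Genes described one by one were the DAN and TIR genes and PAU genes with a mean of 10 TPM or more in any group, 15 in all; PAU24 was added after its values were seen, and the other genes are given by range. The genes and lists were chosen with earlier results of these data known. Names were matched to the R64 annotation for 5951 genes, with 456 unmatched. Biopython 1.88 read sequences and motifs from windows of 300 bases that begin 400 bases before start codons and aligned coding sequences; 50-base stretches were called unique when they occurred once in the genome on either strand, and a distance under 20 kb from a chromosome end counted as near an end. Alternatives were a pseudocount of 0.1, no filter, median-ratio scaling, other sets of libraries in the fit, the replicate number as a block and single libraries left out; 2 more were added after the data were seen, the SWI3 wild type as the control of the SNF2 family and identical copies summed.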

Additional observations from a re-analysis of the deposited data

Results flagged for a closer look

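The effects of the 2 deletions, each against its own wild type, were set against each other in the test of their difference, and 3 PAU genes near chromosome ends passed it. The snf2del change minus the swi3del change was 1.32 ± 0.17 for PAU14, 1.30 ± 0.17 for PAU1 and 1.24 ± 0.29 for PAU11 on the log2(TPM + 1) scale (adjusted p 5.29e-05, 5.29e-05 and 0.0226, limma; n = 3 libraries per group). PAU14 was at 7.43 ± 1.3 TPM in the SNF2 wild type and 23.2 ± 1.58 TPM in the SWI3 wild type, and at 39.6 ± 5.48 TPM in snf2del and 46.3 ± 7.47 TPM in swi3del. PAU1 and PAU14 have the same coding sequence, so the first 2 values are one measurement in effect. The part of the wild types in these differences was not tested.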

How the results depend on the processing

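Of 94 called results of the 15 genes described one by one, 1 lost its call with a pseudocount of 0.1, 0 with no filter on low levels, 3 with median-ratio scaling, 2 with all 21 libraries in one fit, 0 with the replicate block and 8 without some single library; 0 of these turned in direction. Of 87 with identical copies summed, 0 lost the call. When the SNF2 family was set against the SWI3 wild type, a choice made after seeing the data, 8 of 34 lost the call and 3 reversed, all in snf2-W935R: PAU1 (-0.48), PAU14 (-0.48) and PAU11 (-0.30). That control also gave 1 gene higher and 4 lower in snf2-W935R (6 and 2 with its own wild type) and 6 higher in snf2-Q928K (14).

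Median-ratio scaling gave 1 gene (TIR4) higher in snf2-W935R than in snf2del, where there were 0, and only the libraries compared gave 3 lower in the SNF2 than in the SWI3 wild type, where there were 6. Leaving out single libraries gave 0 to 1 higher in swi3-E815X, 3 to 7 higher in snf2-W935R, 0 to 1 lower and 6 to 11 higher in snf2-Q928K against snf2-W935R, 3 to 6 lower in the SNF2 wild type, and 2 to 3 for the difference between the deletions. The cause of these changes was not tested. The replicate block gave 8 genes higher in snf2-W935R, with PAU9 at 0.58 (adjusted p = 0.0346, limma) and PAU12 at 0.58 (0.0365) gaining a call, 10 higher in snf2-Q928K than in snf2-W935R and 5 lower in the SNF2 wild type. Of 27 pairs of libraries with the same number, 4 had a correlation of deviations over 0.1 (-0.185 to 0.188), and a library correlated best with its own number in 21 of 54 cases, so the numbers were not taken to pair the libraries. Since TPM keeps no depth, what depth limits here is unknown.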
